A study of Homo sapiens with 4 samples.

Results

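The 8 genes described here encode transcription factors that define the intestinal epithelium: CDX1, CDX2, HNF4A, GATA6, SOX9, SOX4, ELF3 and EHF. They were taken by gene symbol from the deposited table, in which all 8 were found among 60048 genes, and all 8 passed the filter on low values. CDX1 and CDX2 are homeobox factors that set the hindgut identity of the epithelium. HNF4A is a nuclear receptor and GATA6 a zinc finger factor, and both act with the CDX factors on genes of absorptive cells. SOX9 is an HMG-box factor of the crypt base, where stem and Paneth cells lie, and SOX4 is an HMG-box factor of another SOX group. ELF3 and EHF belong to the epithelium-specific subfamily of ETS factors. Genes of this kind are usually controlled by enhancers that can lie far from the promoter, and cohesin is the ring-shaped complex that forms chromatin loops.

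The study measured RNA made within a short window by EU-seq, in which cells take up 5-ethynyl uridine and the labelled RNA is captured and sequenced. All 4 libraries came from HCT116, a human colorectal carcinoma line, of genotype RAD21-mAC, in which the cohesin subunit RAD21 carries a degron tag; the control cells carry the tag too. The control group (2 libraries) received DMSO, and the auxin group (2 libraries) was given the auxin indole-3-acetic acid at 0.5 mM over 3 h, a treatment meant to deplete RAD21; every library was labelled with 0.5 mM EU for 20 min. The labels do not say whether the line is 1 clone or whether replicates came from separate cultures, so the p-values measure the spread between these libraries, which may be technical. The loss of RAD21 protein is not measured by these data.

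The deposited values are a scaled signal summed over the whole span of a gene, introns included, and the read depth of a value is unknown. Totals on the deposited scale lay between 61135244 and 93113007, and the libraries were brought to a common scale by factors of 0.816 to 1.21, so any change in total nascent RNA is removed. In control replicate 1, none of 4229 pairs of a gene of at least 2000 bases lying inside a gene of the opposite strand had the inner value above that of the host (tolerance 5), so overlapping genes share signal whatever their strand. Of 39464 genes tested with limma, 0.732% had an adjusted p under 0.05 (131 higher and 158 lower with auxin). All 7 general epithelial markers were tested, including EPCAM and CDH1, with a summed scaled signal of 62804 and 70104 in control and 63017 and 64907 in auxin. The 6 colon markers, CDX2 among them, summed to 2975 and 2438 in control and 3292 and 2915 in auxin, with KRT20, a marker of differentiated colonocytes, at no more than 42.0 in any library. CDX2, itself a member, held 1782 and 1211 of this sum in control and 2195 and 1771 in auxin, so the sum is not independent of the members. VIL1 stood at 683 to 850, and CDH17, GPA33 and LGALS4 at 62.9 to 173. Of the leukocyte, fibroblast and endothelial markers, none was called, CD3E and COL1A2 were too low to be tested, and none was at 0 in every library. Their summed signal in control and auxin was 1092 to 1124 and 1081 to 1132 for leukocytes, 652 to 808 and 947 to 1089 for fibroblasts, and 602 to 675 and 701 to 835 for endothelial cells. Across the 4 libraries CD68 alone held 995 to 1038 of the leukocyte sum, and COL1A1 alone held 577 to 998 of the fibroblast sum. The 4 neural markers summed to 10213 to 11713 in control and 16565 to 17343 in auxin. Among them, TUBB3 was called higher with auxin (mean and SD of 2 libraries 9688 ± 834 in control and 15173 ± 580 in auxin; limma adjusted p = 0.0413), and the part of these markers in the results was not tested.

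Promoter sequences of 6 of the 8 genes were found in the RefSeq table (GRCh38.p14). SOX9 and CDX1 were not in it. The 250 bases before the start are shown for SOX4, CDX2 and ELF3, which stand for the SOX, CDX and ETS members and are among the 5 genes with the most signal per length. Letters in capitals mark matches to the motifs named below, which were searched on both strands. The motif of the TATA-binding protein was searched with the letters TATAAA. The motif of the trimeric factor NF-Y, named after its letters, was searched as CCAAT and can appear here as its reverse complement. The GC box, bound by SP1 and related factors, was searched as the letters GGGCGG and none was found in the windows shown.
SOX4, chr6:21593501-21593750, plus strand: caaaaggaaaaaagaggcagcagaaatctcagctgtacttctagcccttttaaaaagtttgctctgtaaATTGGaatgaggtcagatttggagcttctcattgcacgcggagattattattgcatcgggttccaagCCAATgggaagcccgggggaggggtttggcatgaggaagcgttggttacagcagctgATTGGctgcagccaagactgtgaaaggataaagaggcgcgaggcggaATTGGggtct
CDX2, chr13:27969316-27969565, minus strand: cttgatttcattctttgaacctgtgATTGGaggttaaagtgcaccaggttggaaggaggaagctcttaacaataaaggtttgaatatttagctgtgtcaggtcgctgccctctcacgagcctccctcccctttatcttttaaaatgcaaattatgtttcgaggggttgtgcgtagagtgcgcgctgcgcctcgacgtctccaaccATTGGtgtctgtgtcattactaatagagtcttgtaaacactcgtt
ELF3, chr1:202010337-202010586, plus strand: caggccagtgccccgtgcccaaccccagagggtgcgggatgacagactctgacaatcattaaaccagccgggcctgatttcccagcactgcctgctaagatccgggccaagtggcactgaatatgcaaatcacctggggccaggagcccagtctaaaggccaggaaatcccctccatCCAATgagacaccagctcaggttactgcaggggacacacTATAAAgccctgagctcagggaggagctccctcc
SOX4 held 4 CCAAT boxes and CDX2 held 2, and ELF3 held 1 together with a TATA box whose first base lies 34 bases before the start. Over all 35116 promoters of this length, 32.0% held a CCAAT box, 10.7% a TATA box, 42.6% a GC box and 2.02% the CTCF core. These matches describe the letters and not binding. The RefSeq start of ELF3, at chr1:202010587, lies inside the deposited span of the gene (chr1:202007945-202016009). The antisense gene ELF3-AS1 (chr1:201995696-202010463, minus strand) has its start, at its higher coordinate, within the window shown.

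The 8 genes covered a wide range of nascent signal. SOX9 had the highest level in control cells, with a scaled signal per kb of span of 839 in replicate 1 and 1209 in replicate 2. SOX4 followed at 334 and 436. CDX2 stood at 212 and 144, EHF at 115 and 149, and ELF3 at 129 and 122. CDX2 lay above ELF3 without overlap, but EHF could not be placed in the order, because it overlapped both. GATA6 was lower, at 26.5 and 22.7. HNF4A (1.54 and 2.63) and CDX1 (0.953 and 0.518) stood last, and their ranges did not overlap each other or those of the other members. For scale, the median over the 17767 tested protein-coding genes was 62.9 per kb in control, and the control means placed SOX9 at the 98.5th percentile of these genes, SOX4 at the 90.3rd, CDX2 at the 74.4th, GATA6 at the 34.4th, HNF4A at the 13.5th and CDX1 at the 5.84th.

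**Figure D1:**
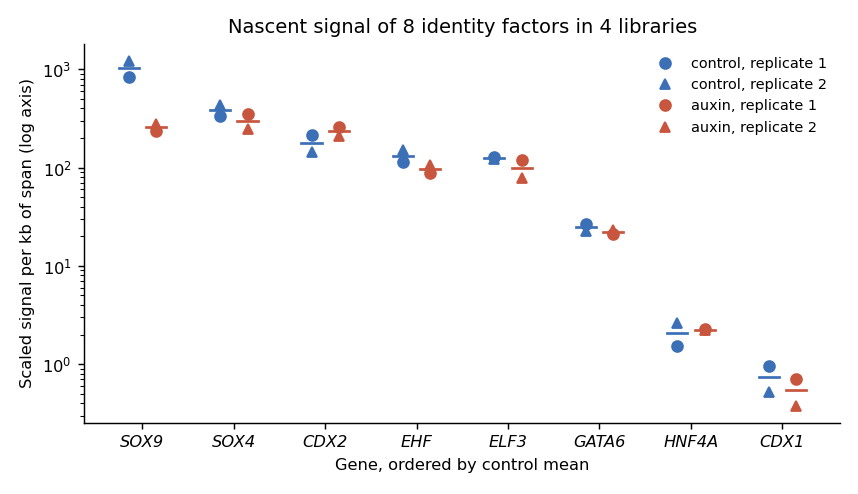
Scaled nascent signal per kb of gene span (log axis) of the 8 genes in each of the 4 libraries; circles are replicate 1, triangles replicate 2, blue control and red auxin, and bars are group means. The auxin libraries of SOX9 (233 and 279 per kb) lie below its control libraries (839 and 1209 per kb), and HNF4A and CDX1 lie lowest in every library.

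With auxin, SOX9 fell and none of the other 7 genes passed the test. This is 1 gene of 8 called lower, where 0.400% of all tested genes were called lower and 0.332% higher, and 1.17% of the protein-coding genes were called in either direction. Of the 8, 6 had a negative and 2 a positive log2 fold change, with a median of -0.38, against 0.0089 over all tested genes and -0.011 over the protein-coding ones. Both auxin libraries lay below both control libraries for 3 genes (SOX9, EHF and ELF3), as they did for 19.6% of all tested genes. They lay above for none of the 8, against 18.6% of all tested genes. Among the 17767 tested protein-coding genes they lay below for 4228 and above for 3642.

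SOX9 (ENSG00000125398, GRCh38 chr17:72121020-72126416, plus strand) had a scaled signal of 4526 and 6526 in control replicates 1 and 2, and of 1257 and 1507 in auxin replicates 1 and 2. Each auxin value was under each control value, with log2 differences from -2.37 to -1.59, while the control replicates differed by 0.53 and the auxin replicates by 0.26. The means were 5526 ± 1414 in control and 1382 ± 176 in auxin, with n = 2 and SD as the error in each group. SOX9 fell by 1.98 on the log2 scale (standard error 0.19, 95% interval -2.41 to -1.55, limma adjusted p = 0.00183), a level 3.95-fold lower. A lower signal can come from fewer cells making a transcript or from less RNA made per cell, and these bulk libraries cannot tell the 2 apart. By p-value SOX9 ranked 23rd of the 39464 tested genes. The call held under all 12 alternative settings, with log2 fold changes from -2.24 to -1.72 and limma adjusted p-values of at most 0.0071. In 4 of them the prior degrees of freedom were infinite and SOX9 had no spread of its own, and the other 8 include both fits without a control library.

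SOX9 stood above SOX4 in both control libraries and in auxin replicate 2, but not in auxin replicate 1. The signal per kb of SOX9 was 2.51 and 2.77 times that of SOX4 in the control libraries, and 0.669 and 1.13 times in the auxin libraries. In auxin cells SOX9 stood at 233 and 279 per kb, overlapping SOX4 (348 and 247) and CDX2 (261 and 211), so the 3 genes with the most signal could not be ordered there. The auxin mean of SOX9 was at the 83.3rd percentile of tested protein-coding genes. SOX4 (ENSG00000124766, chr6:21593751-21598619, plus strand) had a scaled signal of 1628 and 2123 in control and 1695 and 1205 in auxin. Its auxin replicate 1 lay between the control values and only auxin replicate 2 lay below them. The log2 fold change was -0.38 (standard error 0.21, 95% interval -0.84 to 0.084, limma adjusted p = 0.618).

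The span of SOX9 lies wholly inside that of the antisense lncRNA gene AC007461.1 (chr17:72033772-72220948, minus strand), which was the only other gene called among those that overlap a member or flank it. AC007461.1 had a scaled signal of 5047 and 7021 in control and 1609 and 1991 in auxin (log2 fold change -1.73, standard error 0.19, limma adjusted p = 0.00282). SOX9 covers 2.88% of that span but held 89.7% and 92.9% of its signal in control and 78.2% and 75.7% in auxin, so the values of both genes rest mostly on the same stretch, where the strands cannot be told apart. With SOX9 subtracted, the rest of the span held 520 and 495 in control and 351 and 484 in auxin. The groups of this remainder do not overlap, but auxin replicate 2 lies close to control replicate 2, and the difference in mean log2 was -0.30, with no test made. SOX9-AS1 is a lncRNA gene whose start lies 0.213 kb before that of SOX9, and it is named here after its values were seen. It stood at 282 and 278 in control and 77.6 and 147 in auxin (log2 fold change -1.38, standard error 0.31, limma adjusted p = 0.0914). Its span also lies inside that of AC007461.1, so its signal is part of the remainder given above. On group means SOX9-AS1 lost more signal than the whole remainder did, so the lower remainder shows no fall outside SOX9-AS1.

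No gene farther out was called. Within 2 Mb of the start of SOX9, 32 tested genes did not overlap it and none of them was called by limma. Their median log2 fold change was 0.049. The nearest tested protein-coding gene on the side of higher coordinates, SLC39A11, a zinc transporter gene 520 kb from SOX9, had 38017 and 31130 in control and 33130 and 37002 in auxin, with overlapping groups and a log2 fold change of 0.025 (standard error 0.12, limma adjusted p = 0.988). On the other side the nearest was KCNJ16, a potassium channel gene 1985 kb away, with a low signal of 38.1 and 28.6 in control and 14.3 and 7.86 in auxin (log2 fold change -1.55, standard error 0.52, limma adjusted p = 0.284). Between these flanking genes, SOX9 is the only tested protein-coding gene.

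**Figure D2:**
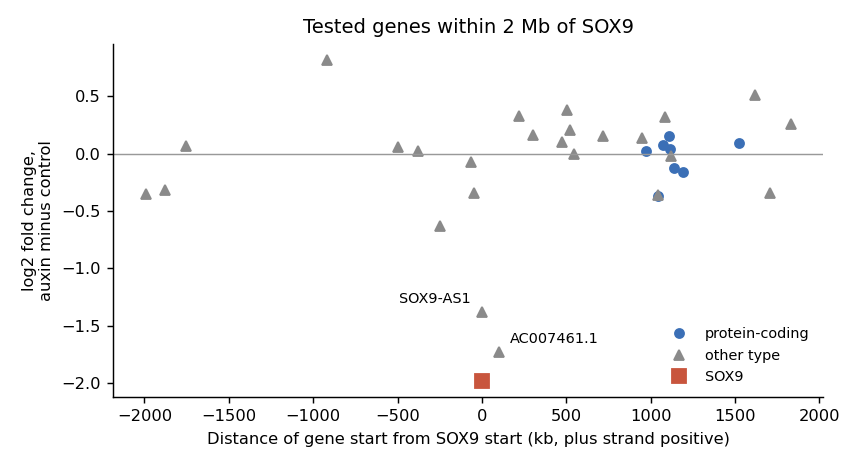
Log2 fold change (auxin minus control) of each tested gene within 2 Mb of SOX9 against the distance of its start from the SOX9 start in kb; circles are protein-coding genes, triangles genes of other types, and the square is SOX9. SOX9 (-1.98), the overlapping AC007461.1 (-1.73) and SOX9-AS1 (-1.38) lie lowest, and the median of the 32 genes that do not overlap SOX9 is 0.049.

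The 2 homeobox genes had opposite signs and neither passed the test. CDX2 (ENSG00000165556, chr13:27960918-27969315, minus strand) had a scaled signal of 1782 and 1211 in control and 2195 and 1771 in auxin. Auxin replicate 2 was just under control replicate 1, so the groups overlap. CDX2 had the highest log2 fold change of the 8, at 0.42 (standard error 0.21, 95% interval -0.041 to 0.89, limma adjusted p = 0.545), and it ranged from 0.15 without control replicate 2 to 0.71 without control replicate 1. CDX1 (ENSG00000113722, chr5:150166778-150184558, plus strand) was close to the lower limit of the table, at 17.0 and 9.21 in control and 12.5 and 6.74 in auxin. Its log2 fold change of -0.41 has a 95% interval from -1.88 to 1.06 (standard error 0.66, limma adjusted p = 0.945), which leaves its direction undetermined. Per kb, CDX2 exceeded CDX1 by 223-fold and 278-fold in the control libraries and by 372-fold and 556-fold in the auxin libraries, so CDX2 supplied nearly all CDX signal in both groups.

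The ETS pair had similar levels and the same sign. EHF (ENSG00000135373, chr11:34621093-34663288, plus strand) had a scaled signal of 4848 and 6306 in control and 3685 and 4519 in auxin. Both auxin values were below both control values, the higher of them by a small margin. The log2 fold change was -0.44 (standard error 0.17, 95% interval -0.81 to -0.064) with an unadjusted limma p of 0.0259 and a limma adjusted p of 0.373. An unadjusted p under 0.05 was found for 10.2% of all tested genes and for 2586 of the 17767 protein-coding ones. ELF3 (ENSG00000163435, chr1:202007945-202016009, plus strand) had 1040 and 983 in control and 961 and 634 in auxin. Its auxin replicate 1 was just below control and auxin replicate 2 well below, and the log2 fold change was -0.37 (standard error 0.22, 95% interval -0.86 to 0.11, limma adjusted p = 0.656). The value moved to -0.074 without auxin replicate 2. AL691482.3, a lncRNA gene inside ELF3 on the same strand, held 66.0% to 74.2% of the ELF3 signal in the 4 libraries. It covers 53.2% of the ELF3 span, where its signal cannot be told apart from that of ELF3. ELF3-AS1, which overlaps the 5′ part of ELF3 on the opposite strand, had a log2 fold change of -0.062 (limma adjusted p = 0.97). Only 17.1% of the ELF3-AS1 span lies in ELF3, and most of it lies inside RNPEP (chr1:201982648-202006143, plus strand). The value of ELF3-AS1 therefore includes RNPEP signal.

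GATA6 and HNF4A had the log2 fold changes closest to 0 among the 8. GATA6 (ENSG00000141448, chr18:22169589-22202528, plus strand) had a scaled signal of 871 and 749 in control and 691 and 757 in auxin. The groups overlap, and the log2 fold change was -0.16 (standard error 0.19, 95% interval -0.57 to 0.25, limma adjusted p = 0.898). HNF4A (ENSG00000101076, chr20:44355801-44432843, plus strand) had 119 and 203 in control and 176 and 171 in auxin. Both auxin values lay between the control values, and the log2 fold change was 0.16 (standard error 0.29, 95% interval -0.49 to 0.81, limma adjusted p = 0.954), with the sign turned without control replicate 1 (-0.22). HNF4A-AS1, an antisense lncRNA gene inside HNF4A, covers 23.3% of the HNF4A span and held 13.6% to 26.8% of the HNF4A signal. At this number of libraries the intervals of both genes include changes of more than 0.5 on the log2 scale in at least 1 direction.

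**Figure D3:**
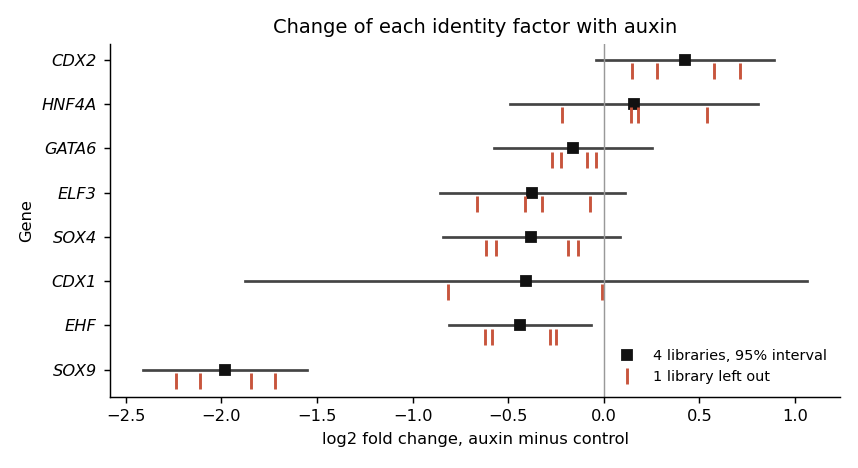
Log2 fold change of the 8 genes, auxin minus control; squares are the estimate from 4 libraries with its 95% interval, and red ticks are the estimates with 1 library left out (for CDX1 only 2 of these could be made, since the gene otherwise missed the filter). The interval of SOX9 (-2.41 to -1.55) lies below those of the other 7 genes except that of CDX1, whose interval is wide.

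The surroundings of the other members were examined in the same way. Of the 10 genes whose spans overlap a member, 7 were tested and only AC007461.1 was called. Those not called were HNF4A-AS1, AC091588.1 and AC091588.3 (over GATA6), AL512380.2 (over SOX4), ELF3-AS1 and AL691482.3, while AL117382.2, MIR3646 and RNU6-702P were too low to be tested. Each member has a nearest tested protein-coding gene on either side, 16 in all: PDGFRB and SLC6A7 beside CDX1, PDX1 and URAD beside CDX2, R3HDML and TTPAL beside HNF4A, MIB1 and CTAGE1 beside GATA6, KCNJ16 and SLC39A11 beside SOX9, CDKAL1 and NRSN1 beside SOX4, RNPEP and GPR37L1 beside ELF3, and ELF5 and APIP beside EHF. None of the 16 was called by limma, 2 had an unadjusted p under 0.05 (KCNJ16 and URAD), a share near the 10.2% of all tested genes, and their log2 fold changes ran from -1.55 to 0.25 with a median of -0.14. URAD, 8.40 kb from CDX2, had a low signal of 23.7 and 23.5 in control and 10.7 and 5.61 in auxin (log2 fold change -1.49, standard error 0.58, limma adjusted p = 0.387), opposite in sign to CDX2. PDX1, a homeobox factor of the pancreas and duodenum 34.6 kb from CDX2, had a log2 fold change of -0.18 (limma adjusted p = 0.898).

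Within 2 Mb of the 8 starts, tested genes of 463 different symbols did not overlap the member they were near, with genes of the same symbol counted once. Of these, 3 were called, all lower, where 0.732% of all tested genes were called. This share is near that of all genes, so it is no result about the members, and the 3 were picked for their values. PPARGC1B, a transcriptional coactivator gene 436 kb from CDX1, fell from 17288 and 15244 in control to 9446 and 8818 in auxin (log2 fold change -0.83, standard error 0.12, limma adjusted p = 0.0136). CABLES1, 966 kb from GATA6, fell from 6507 and 5577 to 2907 and 2752 (log2 fold change -1.09, standard error 0.14, limma adjusted p = 0.00821). The lncRNA gene AC015878.1, 719 kb from GATA6 on its other side, fell from 1477 and 1614 to 730 and 775 (log2 fold change -1.04, standard error 0.17, limma adjusted p = 0.0263). CDX1 and GATA6 themselves were not called.

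Other members of the same families were examined in the same way. Of 13 paralogues, 10 were tested, none was called by limma and 1 had an unadjusted p under 0.05; the median log2 fold change was -0.11. CDX4 and SOX11 were listed at 0 in every library, and GATA5 was too low to be tested. The 2 genes nearest to SOX9 in the family, the SOXE factors SOX8 and SOX10, both had negative values. Genes overlapping the paralogues were not examined, so these values may include signal of other genes. SOX8 had 363 and 300 in control and 207 and 188 in auxin, with groups that did not overlap (log2 fold change -0.74, standard error 0.23, limma adjusted p = 0.228). SOX10 had 2856 and 1865 in control and 1944 and 1615 in auxin, with overlapping groups (log2 fold change -0.38, standard error 0.21, limma adjusted p = 0.626). SPDEF, an ETS factor of goblet cells, had 131 and 107 in control and 95.4 and 71.9 in auxin, without overlap (log2 fold change -0.51, standard error 0.29, limma adjusted p = 0.639).

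Of 38 other transcription factors of the intestinal epithelium, 31 were tested. Genes overlapping these factors were not examined, so their values may include signal of other genes. None of the 31 was called by limma, and 9 had an unadjusted p under 0.05. Of all tested genes 10.2% did, and of the 17767 tested protein-coding genes 2586 did. Of the 31 factors, 15 had a positive and 16 a negative log2 fold change, and the median was -0.0049. PPARG, a nuclear receptor of lipid metabolism that colonocytes express, had the smallest p. Its scaled signal was 3083 and 2385 in control and 1575 and 1161 in auxin, without overlap (log2 fold change -1.003, standard error 0.20, limma adjusted p = 0.0575). KLF4, a zinc finger factor of differentiated surface cells, had 1085 and 918 in control and 570 and 439 in auxin (log2 fold change -0.99, standard error 0.21, limma adjusted p = 0.0677). VDR, the vitamin D receptor, differed the other way, at 5769 and 5367 in control and 7959 and 9249 in auxin (log2 fold change 0.62, standard error 0.13, limma adjusted p = 0.0797). These 3 lie close to the threshold, and without auxin replicate 1 the test called 5 of the list: PPARG, KLF4, VDR, POU2F3 and BHLHA15, the last 2 being named for this result. Without auxin replicate 2 it called TCF7L2, the main TCF partner of beta-catenin in the gut (log2 fold change -0.86), a gene picked for its value, which with 4 libraries had -0.63 and a limma adjusted p of 0.0839. In both of these fits the auxin group is 1 library, assumed to vary like the control group, and the prior degrees of freedom were infinite, so no gene had a spread of its own. The calls over all genes went from 289 to 681 and 538, and the calls in the list are no support for a change. By role, the 13 secretory and enteroendocrine factors were the least measured: 8 were tested, and ATOH1, NEUROG3, NEUROD1, INSM1 and PAX4, which start or carry out those programmes, were too low.

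Of 53 genes used as markers or targets of these factors, 45 were tested and none was called by limma. An unadjusted p under 0.05 was found for 10, against 10.2% of all tested genes and 2586 of the 17767 protein-coding ones. The median log2 fold change was -0.044. FABP1, ALPI and APOA4, genes of absorptive enterocytes, were listed at 0 in every library. USH1C, a scaffold protein of the brush border, had 2119 and 1851 in control and 3087 and 3318 in auxin (log2 fold change 0.69, standard error 0.15, limma adjusted p = 0.0875). ZNRF3, an E3 ligase that removes Wnt receptors, had 19538 and 16891 in control and 12357 and 14016 in auxin (log2 fold change -0.47, standard error 0.12, limma adjusted p = 0.156). SPINK4, a peptide of goblet cells, had 1205 and 950 in control and 737 and 647 in auxin (log2 fold change -0.63, standard error 0.19, limma adjusted p = 0.231). Genes overlapping the target genes were not examined either, so the values of this list may include signal of other genes.

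By group, and with no test between groups, the target genes lay as follows. The 23 absorptive genes had a median log2 fold change of -0.017, with 11 positive and 12 negative, and the 9 genes of the colonocyte surface had 0.19, with 6 positive and 3 negative. The 4 tested goblet cell genes had -0.25, with 1 positive and 3 negative. The 9 tested crypt and stem cell genes had a median of -0.37, with 2 positive and 7 negative, while the 5 crypt and stem cell factors of the partner list had a median of 0.31, with 3 positive and 2 negative. Of these 5 factors, ASCL2 and PROX1, both positive, stood at no more than 12.5 in any library, near the lower limit of the test. The other positive factor was HES1 (0.31), and the negative factors were TCF7L2 (-0.63) and MYB (-0.71). Both auxin libraries lay below both control libraries for 13 of the 45 tested target genes and above them for 6, against 19.6% and 18.6% of all tested genes. Among the 17767 tested protein-coding genes they lay below for 4228 and above for 3642. They lay below for 5 of 23 absorptive, 1 of 9 colonocyte surface and 2 of 4 goblet cell genes, and above for 3, 2 and 1. For the 9 crypt and stem cell genes they lay below in 5: ZNRF3, CD44, PROM1, RGMB and AXIN2, which had log2 fold changes between -0.53 and -0.37. None of these 5 passed the limma test with 4 libraries. For EPHB3 (0.34), SMOC2 (0.063) and EPHB2 (-0.14) the groups overlapped, as they did for LGR5. CD44, a cell surface receptor of crypt cells, was called without control replicate 1 (log2 fold change -0.78, limma adjusted p = 0.0462), where the control group is 1 library assumed to vary like the auxin group. It was also called without auxin replicate 2, but in that fit the prior degrees of freedom were infinite, so CD44 had no spread of its own and the call is no support. Of these genes only ZNRF3 follows the rule for named genes; the others were named after their values were seen. LGR5, the receptor that marks crypt stem cells, had a low signal of 58.4 to 74.6 and a log2 fold change of -0.15 (limma adjusted p = 0.96), and OLFM4 was too low to be tested.

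**Figure D4:**
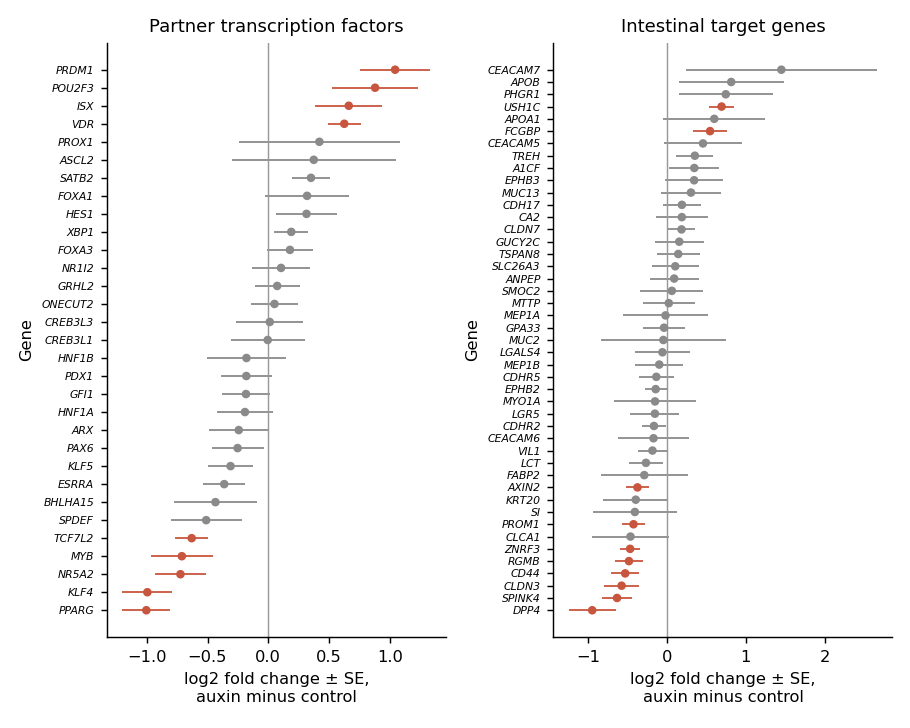
Log2 fold change with its standard error, auxin minus control, of the 31 tested partner transcription factors (left) and the 45 tested intestinal target genes (right), each ordered by value; red marks genes with an unadjusted p under 0.05, and none has an adjusted p under 0.05. Partner factors run from PPARG (-1.003) to PRDM1 (1.04, named after its value was seen), and target genes run from -0.94 to 1.45.

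For SOX9, the member with the smallest p, the genes with the most similar pattern over the 4 libraries were sought among 6580 protein-coding genes that overlap no other tested gene and have a mean of at least 50. The measure was the Euclidean distance between log2 values centred on each gene's mean. The nearest was CNTNAP3C (distance 0.077), with 2239 and 3385 in control and 669 and 785 in auxin; it belongs to a family of near-identical copies, so its value is uncertain. KITLG, the gene of the KIT ligand, followed at 0.22, with 35690 and 59145 in control and 12209 and 13016 in auxin. F3, the gene of tissue factor, was at 0.22 as well, with 4328 and 6872 in control and 1359 and 1343 in auxin. That these genes were lower with auxin and higher in control replicate 2 than in control replicate 1 follows from how they were chosen. They lie on chromosomes 9, 12 and 1.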

How the data were processed

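The deposited table gives, per gene and library, a signal that the authors scaled by a factor the sources used here do not give. Low values are whole multiples of 1 step per library, but genes of at least 10 kb almost never hold a single step, so the steps were not treated as reads. Per the submitters' processing notes, Trimmomatic 0.39, Bowtie2 2.4.5 and deepTools 3.5.1 were used with hg38 and dm6; the counting step is not given in the sources used here. The header of control replicate 2 is misspelt, and the column was matched to its sample by group and number.

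A gene entered the test with 2 or more libraries at a signal of 10, rescaled to the median library total, and a sum of 15. Scaling used trimmed means of M-values (30% and 5% trimmed), and log2 (scaled signal + 1) was fitted with limma 3.58.1 in R 4.3.3 (lmFit, eBayes with trend), with Benjamini and Hochberg's adjustment over 39464 genes at 0.05; the pseudocount understates changes of low genes. The procedure was tested on simulated data. Starts count from 0 in the table and are printed 1 higher. Figures were drawn with Python 3.11.15 and matplotlib 3.10.9.

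The members, lists and tests were chosen with earlier results of these data known. Named genes are the 8 members, genes overlapping or flanking them, any called gene or else the 3 with the smallest p of the paralogue, partner and target lists, and the 3 patterns nearest to the member with the smallest p. Alternatives were other scalings, filters and pseudocounts, the replicate number as a block, and leaving out each library.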

Additional observations from a re-analysis of the deposited data

How the results depend on the processing

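SOX9 was the only member called under 11 of the 12 alternatives, the exception being the replicate block. Nothing in the labels ties equal replicate numbers to 1 culture or day, and the differences between replicates correlated between the groups with r = 0.231 across 39464 tested genes. With the replicate block, limma called 4273 genes in place of 289, 4 members (CDX2 at an adjusted p of 0.00805, SOX4 at 0.0246, EHF at 0.000856, and SOX9), 2 paralogues, 13 partner factors, 10 target genes and 3 overlapping or flanking genes; with that block limma gave infinite prior degrees of freedom, so single genes kept no spread of their own, as also on the deposited scale and without either auxin replicate. On the deposited scale 55 genes were called; the cause was not tested. With a pseudocount of 10, 1 partner factor (PPARG) was called. With 1 library left out, the number of genes called ran from 132 to 681 (132 without control replicate 2, 681 without auxin replicate 1, 538 without auxin replicate 2), of partner factors from 0 to 5 and of target genes from 0 to 1. HNF4A changed sign with 1 library left out (-0.22 without control replicate 1, and up to 0.54 without control replicate 2). CDX1 was tested under 9 of the 12 alternatives. Depth in reads is unknown, and 2 libraries per group limit the precision.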
